A study of Mus musculus with 48 samples.

Results

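A set of 40 genes of the hypoxia response and of glycolysis was followed across 48 mouse sarcomas. The rule takes them by symbol, from a list of 40 symbols, and applies no measured value, but the symbols were listed with earlier results of these data known. By Ensembl identifier the symbols matched 41 of the 36854 entries of the count table, because Aldoa stands in it with a further entry, ENSMUSG00000114515. That entry held 11 to 91 counts per tumour and was called in no comparison, so Aldoa below means the abundant entry. The set holds 4 HIF subunits and prolyl hydroxylases (Hif1a, Epas1, Egln1, Egln3) and 15 other HIF target genes (Car9, Car12, Bnip3, Bnip3l, Ndrg1, Adm, Ankrd37, P4ha1, P4ha2, Lox, Kdm3a, Mxi1, Stc2, Ero1l, Ddit4). It also holds 4 genes of glucose and lactate transport and of the pyruvate switch (Slc2a1, Slc2a3, Slc16a3, Pdk1). The remaining 17 are glycolytic enzymes and their regulators (Hk1, Hk2, Gpi1, Pfkl, Pfkp, Pfkfb3, Pfkfb4, Aldoa, Aldoc, Tpi1, Gapdh, Pgk1, Pgam1, Eno1, Eno2, Pkm, Ldha). All 40 passed the filter on low counts in every comparison.

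The tumours were p53/MCA sarcomas of the 129/SvJae background, grown in the gastrocnemius muscle of the calf. The 32 primary tumours arose in p53 FL/FL mice that were 6 to 10 weeks old when an adenovirus carrying Cre recombinase was injected to delete p53, with 300 µg of the carcinogen MCA (3-methylcholanthrene) given next. The 16 allografts grew from 50000 cells of 1 cell line placed in the same muscle of syngeneic mice, so all allografts stand for that line, and the age of their hosts is not given in the labels. At about 150 mm3 every mouse received 200 µg of muDX400, a murine antibody against the T cell inhibitory receptor PD-1, or of an isotype control antibody, and then 0 or 20 Gy of X-rays to the whole tumour-bearing hind limb. Tumours were taken 3 days later, which gives 8 groups, with 4 tumours in each allograft group and 8 in each primary group. The tumours carry separate animal identifiers in their titles, and replicate numbers used here are only names given in accession order. Libraries were strand-specific and made from poly(A) RNA, and the deposited counts summed to 31.8 to 54 M (mega) per tumour. Levels below are CPM, each count divided by the total of its library in M, with libraries scaled by the TMM factors of edgeR. That total is summed over the genes that passed the filter on low counts. A gene is called when its edgeR p-value, adjusted over all genes tested, is under 0.05. In bulk tumour RNA, fewer cells of a type and less RNA per cell cannot be told apart.

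HIF is a dimer of an oxygen-regulated alpha subunit, such as that of Hif1a or Epas1, and a stable beta subunit. With oxygen present, prolyl hydroxylases such as those of Egln1 and Egln3 mark the alpha subunit for destruction, and with little oxygen it accumulates and activates target genes from short DNA words that share the core ACGTG or GCGTG. Targets include glucose uptake (Slc2a1, Slc2a3), nearly every step from hexokinase to lactate dehydrogenase, lactate export (Slc16a3), the kinase that keeps pyruvate out of mitochondria (Pdk1), pH control (Car9, Car12), mitophagy (Bnip3, Bnip3l) and collagen modification (P4ha1, P4ha2, Lox). Solid tumours often outgrow their blood supply, and Car9 is widely used as a tissue marker of hypoxia. Skeletal muscle, in which these tumours grew, is itself rich in glycolytic enzymes.

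Promoter sequences of 6 members are shown because these genes carry the dose or tumour-kind differences described below, or, for Car9, because the other members were compared with it from tumour to tumour. The sequences are RefSeq windows of 300 bases on GRCm38.p6, from 250 bases before to 50 after an annotated start, 5′ to 3′ on the strand of the gene. Capitals mark ACGTG or GCGTG on either strand, so a word on the opposite strand appears as CACGT or CACGC, and CACGTG counts for both strands. Pdk1 and Aldoc each have 2 annotated windows, of which the first is shown, and the second held 0 words for Pdk1 and 1 for Aldoc. The Mxi1 window is the first with a word of the 3 annotated for that gene.
Pdk1 (chr2:71872974-71873273, plus strand): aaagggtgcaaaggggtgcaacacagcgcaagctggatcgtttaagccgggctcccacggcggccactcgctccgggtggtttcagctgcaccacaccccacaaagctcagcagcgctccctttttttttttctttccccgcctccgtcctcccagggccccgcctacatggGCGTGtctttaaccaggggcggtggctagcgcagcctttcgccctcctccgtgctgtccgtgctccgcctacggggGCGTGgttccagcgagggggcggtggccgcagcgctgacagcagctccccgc
Aldoc (chr11:78322823-78323122, plus strand): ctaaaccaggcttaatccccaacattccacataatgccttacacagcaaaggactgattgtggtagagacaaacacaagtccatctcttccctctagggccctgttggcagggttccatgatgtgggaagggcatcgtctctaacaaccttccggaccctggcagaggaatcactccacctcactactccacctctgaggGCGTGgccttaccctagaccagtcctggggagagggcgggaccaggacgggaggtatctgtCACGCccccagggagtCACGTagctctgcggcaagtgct
Mxi1 (chr19:53329163-53329462, plus strand): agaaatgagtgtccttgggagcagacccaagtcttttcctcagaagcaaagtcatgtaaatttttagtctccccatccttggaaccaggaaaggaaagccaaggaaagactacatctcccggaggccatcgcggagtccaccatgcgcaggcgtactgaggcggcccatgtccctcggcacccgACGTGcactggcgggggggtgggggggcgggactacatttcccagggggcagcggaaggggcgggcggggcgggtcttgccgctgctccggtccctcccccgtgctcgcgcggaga
Slc16a3 (chr11:120948817-120949116, plus strand): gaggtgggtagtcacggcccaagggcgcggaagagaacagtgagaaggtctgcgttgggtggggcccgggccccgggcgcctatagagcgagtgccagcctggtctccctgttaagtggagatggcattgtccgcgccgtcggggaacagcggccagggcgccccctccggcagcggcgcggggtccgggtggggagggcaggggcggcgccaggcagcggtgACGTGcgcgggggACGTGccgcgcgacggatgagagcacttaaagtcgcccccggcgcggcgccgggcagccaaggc
Hk2 (chr6:82774405-82774704, minus strand): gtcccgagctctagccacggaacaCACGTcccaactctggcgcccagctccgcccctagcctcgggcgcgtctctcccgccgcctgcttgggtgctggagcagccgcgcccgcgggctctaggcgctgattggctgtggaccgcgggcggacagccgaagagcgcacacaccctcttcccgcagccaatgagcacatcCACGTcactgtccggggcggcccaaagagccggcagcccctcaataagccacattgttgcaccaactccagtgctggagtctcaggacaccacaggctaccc
Car9 (chr4:43506776-43507075, plus strand): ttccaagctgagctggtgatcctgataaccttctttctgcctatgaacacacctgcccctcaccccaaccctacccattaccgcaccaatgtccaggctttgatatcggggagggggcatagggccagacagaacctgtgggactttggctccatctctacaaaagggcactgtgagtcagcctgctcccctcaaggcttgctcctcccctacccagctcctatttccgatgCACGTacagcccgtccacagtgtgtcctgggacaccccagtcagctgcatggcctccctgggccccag
Windows were found for 35 of the 40 members and not for Epas1, Slc2a3, Bnip3l, Ndrg1 and Lox. Of the 49 windows of these members, 38 (77.6%) held at least 1 of the words, against 43.8% of all 32851 windows in the table. Some windows of the same gene overlap, so a word can be counted more than once. By gene, 31 of the 35 members held a word, against 46.7% of 27025 genes. Of the member windows, 13 held 3 or more, and 8.93% of all windows did. In Slc16a3 the words began 27 and 14 bases before the start, in Hk2 at 226 and 52 bases before it, and in the Pdk1 window shown at 78 and 2 bases before it. Such a match describes the sequence and is not a binding site by itself. Many members were listed as HIF targets, and HIF acts from these words, so their larger share is no separate evidence.

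Glycolytic enzymes led the members in level per length, and the hypoxia marker Car9 was among the scarcest. Per kilobase of exon and averaged over the 48 tumours, Aldoa (453 CPM per kb) and Gapdh (448) led, followed by Pkm (299), Ldha (215), Pgk1 (205), Tpi1 (187) and Eno1 (130). Hif1a stood at 40.9 CPM per kb and Epas1 at 11.2. At the other end were Car9 (2.07), Aldoc (1.30), the brain-type aldolase, and Car12 (0.785). From the lowest to the highest tumour, CPM differed 68.7-fold for Car9, 48.2-fold for Slc16a3, 45.6-fold for Ankrd37 and 39.0-fold for Adm, the vasodilator peptide adrenomedullin. The Car9 range rests on 1 primary tumour at 70.4 CPM, and the next highest was at 11.1 CPM. By the SD within groups on log2(CPM + 1), Adm (1.24) and Slc16a3 (1.06) lay above Car9 (1.02) in primary tumours, and in allografts Car9 had an SD of 0.33 and Adm of 0.95. CPM differed only 2.81-fold for Gpi1 and 2.92-fold for Bnip3l. Eno1b, a near-identical copy, held 15.5 to 18.8% as many counts as Eno1. Exons of Pkm and Hif1a share 767 and 148 bases on the same strand with the gene models Gm49759 and Gm49321, so these levels are uncertain where counting could have split reads.

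Ranges over the tumours of each group show how far the groups overlapped for members of each role. Epas1, the alpha subunit of HIF-2, which endothelial cells express strongly, ran in allografts from 29.3 to 90.4 CPM with neither treatment, 55.04 to 71.2 with anti-PD-1, 32.6 to 101.5 with 20 Gy and 45.5 to 118.8 with both. In primary tumours Epas1 ran from 16.1 to 79.2 CPM with neither treatment, 13.8 to 101.5 with anti-PD-1, 32.4 to 79.8 with 20 Gy and 17.8 to 261 with both. The ranges of the groups overlapped within each tumour kind, and Epas1 was called in no comparison. Egln3, a prolyl hydroxylase that HIF itself induces, ran in allografts from 41.8 to 70.9 CPM with neither treatment, 29.4 to 99.7 with anti-PD-1, 29.7 to 40.4 with 20 Gy and 28.7 to 39.99 with both. In primary tumours Egln3 ran from 9.31 to 86.98 CPM with neither treatment, 9.05 to 89.2 with anti-PD-1, 8.73 to 61.01 with 20 Gy and 21.2 to 74.6 with both. It was called in no comparison either. Slc2a1 ran in allografts from 90.5 to 213 CPM with neither treatment, 97.5 to 397 with anti-PD-1, 103.7 to 169.8 with 20 Gy and 46.4 to 147 with both. In primary tumours it ran from 80.7 to 248 CPM with neither treatment, 54.1 to 457 with anti-PD-1, 62.1 to 259 with 20 Gy and 63.9 to 364 with both. Pgk1, the first enzyme of glycolysis that makes ATP, ran in allografts from 381 to 527 CPM with neither treatment, 319 to 598 with anti-PD-1, 311 to 395 with 20 Gy and 268 to 452 with both. In primary tumours Pgk1 ran from 264 to 1175 CPM with neither treatment, 299 to 749 with anti-PD-1, 253 to 841 with 20 Gy and 286 to 803 with both. Slc2a1 and Pgk1 were called nowhere. Car9 ran in allografts from 2.40 to 5.42 CPM with neither treatment, 2.43 to 5.33 with anti-PD-1, 2.96 to 4.87 with 20 Gy and 2.92 to 5.31 with both. In primary tumours Car9 ran from 1.02 to 11.1 CPM with neither treatment, 1.06 to 8.11 with anti-PD-1, 1.88 to 4.87 with 20 Gy and 1.17 to 70.4 with both. Its highest level was in a primary tumour with both treatments.

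Tumours of 1 group differed from each other more in these genes than in most expressed genes. Over genes averaging 5 CPM or more, the median SD between tumours of a group, on log2(CPM + 1), was 0.361 in the primary tumours and 0.285 in the allografts. For the members it was 0.582 and 0.384, and 36 and 35 of the 40 lay above the median of all genes. In the allografts a single tumour stood apart. Replicate 4 of the unirradiated anti-PD-1 group was the highest of the 16 allografts in 29 of the 40 members, and replicate 2 of the irradiated anti-PD-1 group was the lowest in 14. Among the 32 primary tumours, replicate 4 of the irradiated anti-PD-1 group was highest in 11 members and replicate 5 of the same group in 8. The map of all members in all tumours shows these columns.

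**Figure D1:**
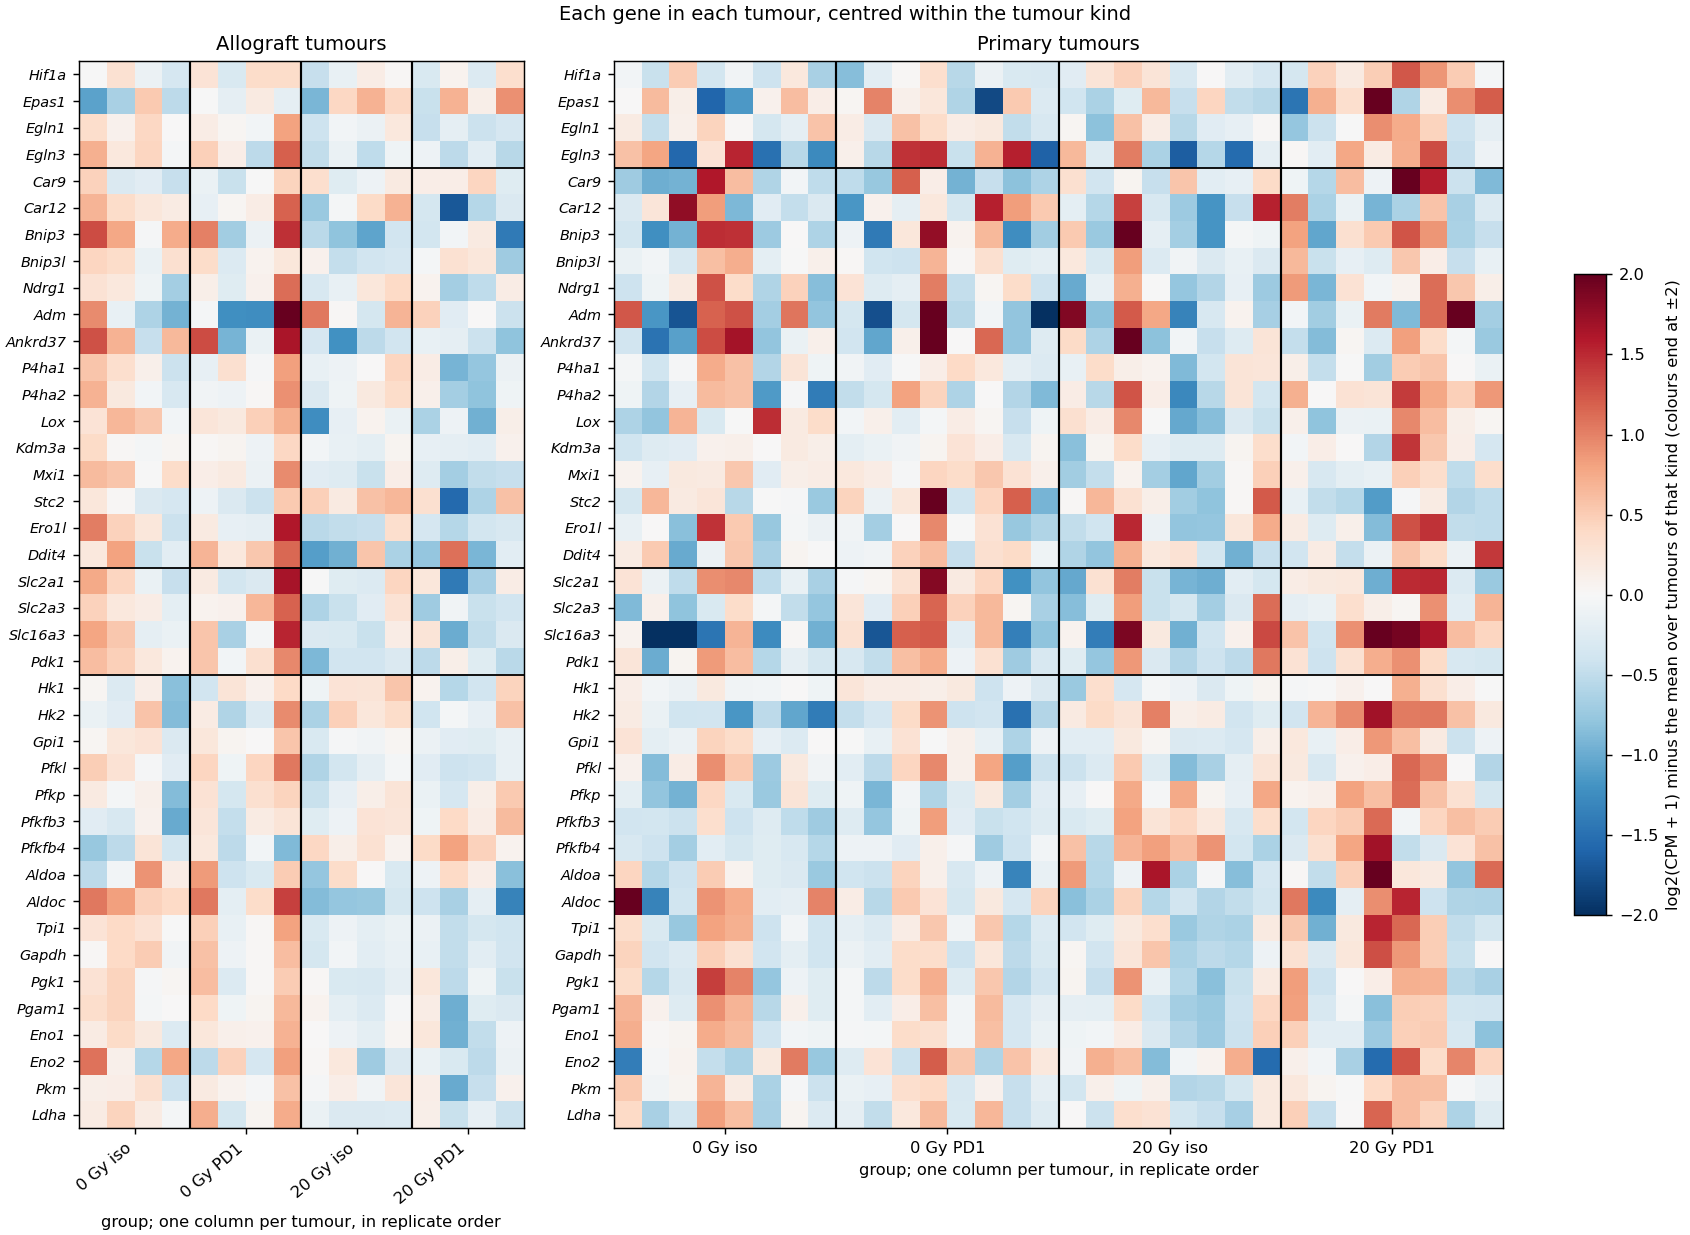
Each member (rows, grouped by role) in each of the 16 allograft and 32 primary tumours (columns, in replicate order within a group), as log2(CPM + 1) minus the mean over tumours of that kind, with colours ending at 2 units either way. Replicate 4 of the unirradiated anti-PD-1 allografts is the highest allograft in 29 of 40 genes.

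The first question was what 20 Gy did to these genes in the allografts given isotype antibody. After irradiation 2 of the 40 members were lower and 0 were higher, while the whole table had 5.14% of its 17746 genes called, 4.4% higher and 0.744% lower. Both were lower in every irradiated tumour than in any unirradiated one. Pdk1 (ENSMUSG00000006494, chr2:71873224-71903858 on GRCm38), the kinase that shuts pyruvate out of the citric acid cycle, stood at 62.8, 57.02, 47.1 and 42.9 CPM without and 21.4, 30.8, 30.9 and 33.1 CPM with 20 Gy. The groups did not overlap (a log2 fold change of -0.82 with SE 0.22 and adjusted p 0.0399). Aldoc (ENSMUSG00000017390, chr11:78322968-78327781), an aldolase isoform, stood at 11.05, 9.26, 7.05 and 6.68 CPM without and 2.20, 2.42, 2.44 and 3.57 CPM with radiation. Every irradiated tumour was below 4 CPM and every unirradiated one above 6 CPM (a log2 fold change of -1.65 with SE 0.37 and adjusted p 0.0197).

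Most of the other members leaned the same way without passing the test. Over all 40, 29 log2 fold changes were negative and the median was -0.28, beside -0.00 over all genes. An unadjusted p under 0.05 was found for 10 members and for 3222 of 17746 genes. Bnip3, a mitophagy receptor, ran from 69.1 to 176 CPM without and from 33.5 to 53.8 CPM with 20 Gy (a log2 fold change of -1.44 with SE 0.43 and adjusted p 0.0658). Its groups did not overlap either, nor did those of Egln3 (70.9, 49.9, 58.1 and 41.8 CPM against 30.2, 39.1, 29.7 and 40.4 CPM), Tpi1 and Ldha. How many of all genes were without overlap between these groups of 4 was not counted. Ldha, the enzyme that makes lactate, stood at 779, 945, 776 and 676 CPM and then at 631, 565, 567 and 575 CPM (a log2 fold change of -0.42 with SE 0.21 and adjusted p 0.324). Hif1a, Car9 and Slc2a1 overlapped between the groups, at 271 ± 51.7 against 257 ± 45.2 CPM, 3.41 ± 1.36 against 3.87 ± 0.863 CPM and 147 ± 55.2 against 125.9 ± 30.7 CPM (mean ± SD, n = 4). The Pdk1 call survived the omission of unirradiated replicate 3, while leaving out any of the other 7 tumours gave an adjusted p of 0.0684 to 0.134. The Aldoc call was lost without replicate 1 or 2 of the unirradiated or replicate 1, 2 or 3 of the irradiated tumours (adjusted p 0.0521 to 0.0698).

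**Figure D2:**
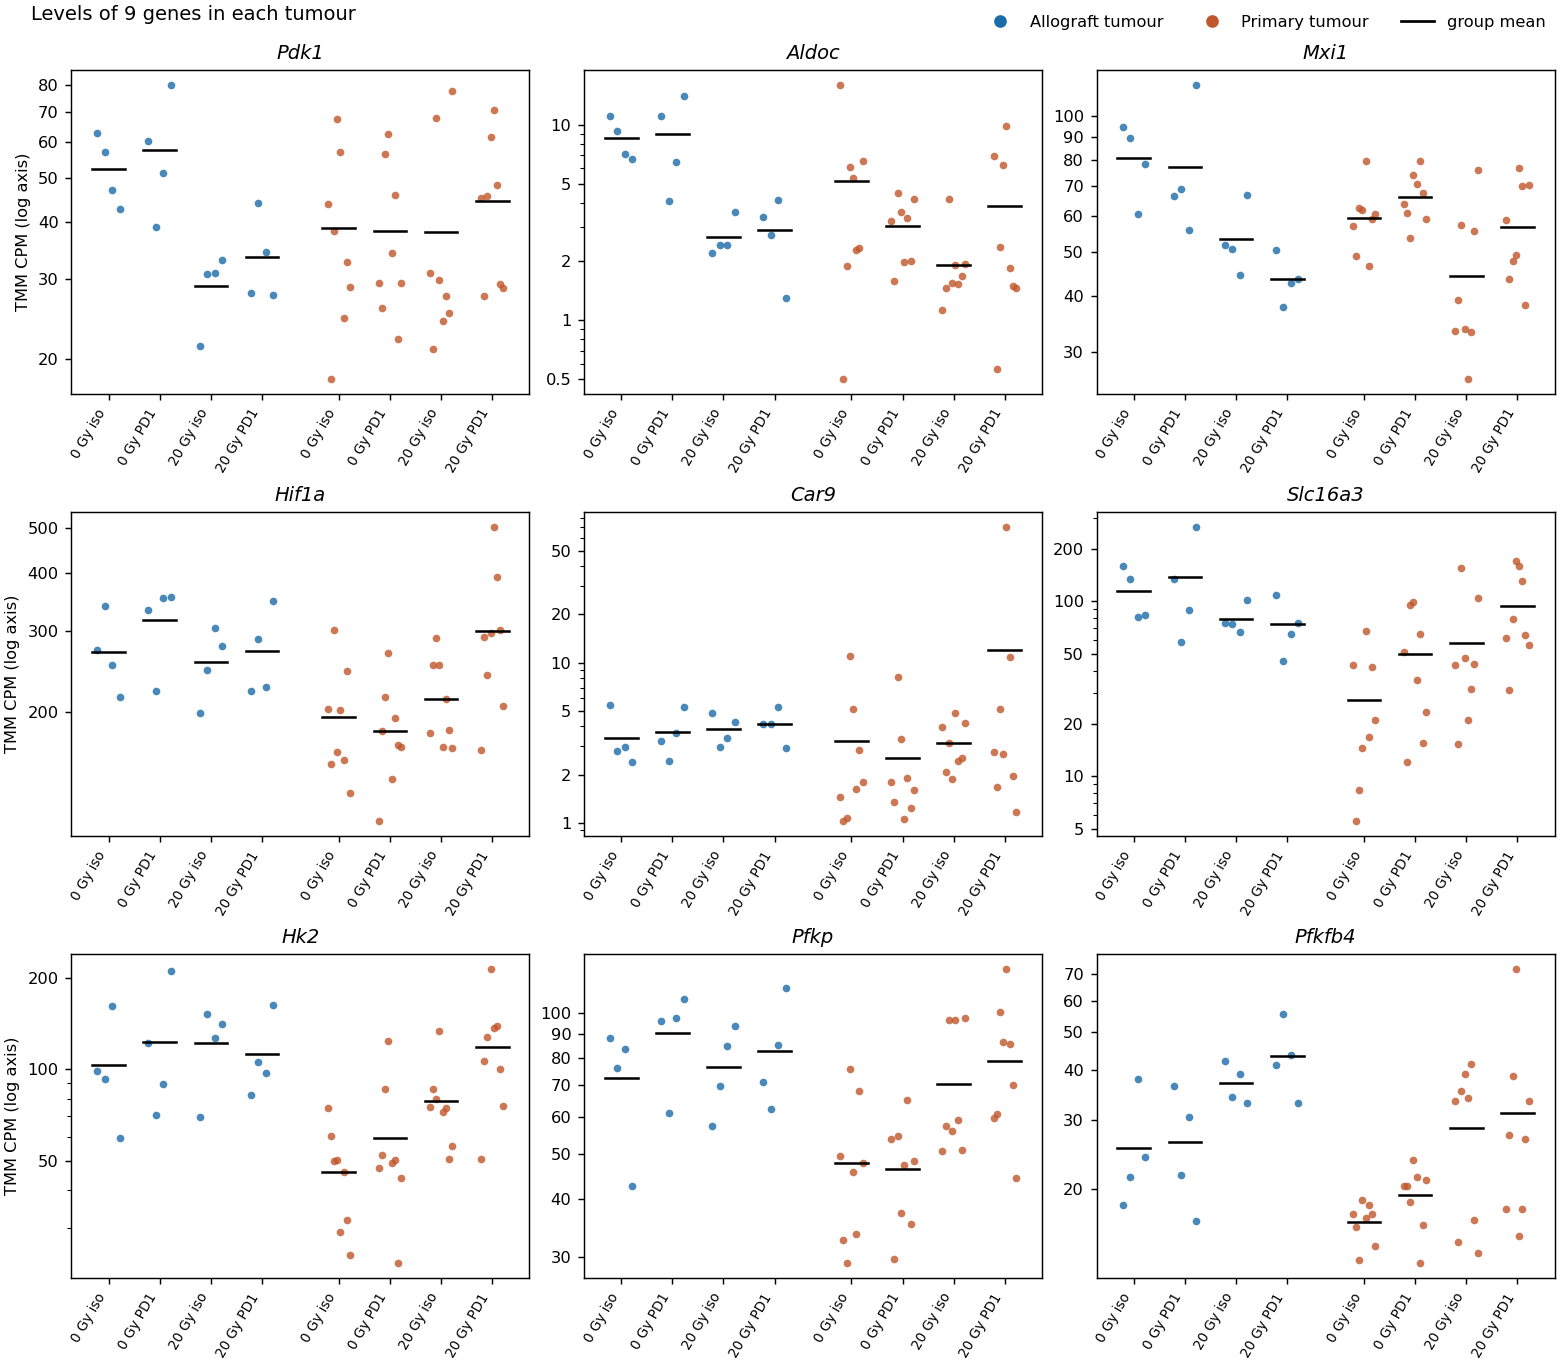
TMM CPM on a log axis of 9 genes in each tumour, by dose and antibody (iso, isotype; PD1, anti-PD-1), blue for allografts (4 per group) and orange for primary tumours (8 per group), with a bar at the group mean. Pdk1 and Aldoc are lower in all irradiated than in all unirradiated allografts given isotype, and Hk2 is lower in most unirradiated primary tumours than in allografts.

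The comparison was then made under anti-PD-1, where again 2 members were lower with 20 Gy and 0 higher, against 3.96% of genes called, 3.13% higher and 0.828% lower. Mxi1 (ENSMUSG00000025025, chr19:53310518-53375810), a repressor that competes with MYC for its partner MAX, stood at 66.6, 68.9, 55.9 and 117.3 CPM without and 50.4, 37.7, 42.6 and 43.6 CPM with radiation. The groups did not overlap (a log2 fold change of -0.81 with SE 0.21 and adjusted p 0.0494). Aldoc stood at 11.1, 4.06, 6.47 and 14.02 CPM without and 3.38, 2.73, 4.11 and 1.31 CPM with radiation, and the lowest unirradiated tumour lay below the highest irradiated one (a log2 fold change of -1.61 with SE 0.37 and adjusted p 0.0271). Of the 40 log2 fold changes 36 were negative, with a median of -0.57 beside 0.02 over all genes. An unadjusted p under 0.05 was found for 21 members and for 3458 of 17746 genes. Groups did not overlap for 9 members: Mxi1, the oxygen sensor Egln1, Car12, Lox, Ero1l, Slc2a3, Gpi1, Pfkl and Gapdh. The share of all genes without overlap was not counted, so it is not known whether 9 of 40 is unusual. Gapdh ran from 1784 to 2958 CPM without and from 1359 to 1725 CPM with 20 Gy (a log2 fold change of -0.60 with SE 0.20 and adjusted p 0.104).

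This comparison leaned on replicate 4 of the unirradiated group, the tumour that was highest in 29 members. Without it 0 members were called by edgeR, the median was -0.35, Mxi1 stood at -0.55 with an adjusted p of 0.149, and the whole table had 184 in place of 703 calls. The Mxi1 call was also lost without unirradiated replicate 2 or any 1 of the 4 irradiated tumours, and the Aldoc call without unirradiated replicate 1 or 4 or irradiated replicate 2 (adjusted p 0.0522 to 0.149 for Mxi1 and 0.0548 to 0.116 for Aldoc). With DESeq2 in place of edgeR 8 members were called (Egln1, Mxi1, Slc2a3, Pdk1, Pfkl, Aldoc, Tpi1, Gapdh), all lower.

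Allografts with both treatments were also compared with those with neither. Mxi1 was 94.7, 89.2, 60.7 and 78.5 CPM in the untreated and 50.4, 37.7, 42.6 and 43.6 CPM in the doubly treated tumours (a log2 fold change of -0.89 with SE 0.21 and adjusted p 0.0166), and Aldoc went from 11.05, 9.26, 7.05 and 6.68 CPM to 3.38, 2.73, 4.11 and 1.31 CPM (a log2 fold change of -1.57 with SE 0.37 and adjusted p 0.0149). Both fell without overlap, and they were the only members called, against 9.66% of genes called, 7.43% higher and 2.23% lower. Negative log2 fold changes made up 32 of 40, and the median was -0.43 beside -0.04 over all genes. Groups also did not overlap for Egln1, Egln3, Car12, Tpi1 and Gapdh, but overlap was not counted over all genes. These groups share the untreated tumours with the isotype comparison and the doubly treated ones with the anti-PD-1 comparison, so the results are not separate evidence. Both calls were lost without replicate 1 (adjusted p 0.0613 for Mxi1 and 0.0529 for Aldoc) or replicate 2 (0.0513 and 0.0505) of the untreated group.

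Changes to the fit ended some of these calls with similar log2 fold changes. With all 48 tumours in the fit the Pdk1 (-0.85) and Aldoc (-1.68) calls with isotype, the Mxi1 (-0.82) and Aldoc (-1.63) calls with anti-PD-1 and the Aldoc call with both treatments (-1.56) were lost (adjusted p 0.087 to 0.328). With no expression filter those of Pdk1 with isotype (-0.82, adjusted p 0.0576) and Mxi1 with anti-PD-1 (-0.80, adjusted p 0.0769) were, and with only the groups compared in the fit both anti-PD-1 calls were (adjusted p 0.16).

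Some properties of the allografts moved with dose besides these genes. Xist, the RNA made from the inactive X chromosome of female cells, was at 88.4 CPM in 1 of the 4 unirradiated isotype tumours and at most 0.406 in the others, and at 75.02 CPM in 1 of the 4 unirradiated anti-PD-1 tumours. It was at 84.0 to 181 CPM in 3 of the 4 irradiated isotype tumours and at 70.8 to 600.1 CPM in 3 of the 4 irradiated anti-PD-1 tumours. With Xist as a covariate 0 members were called in the isotype and anti-PD-1 dose comparisons and 1 in the comparison of both treatments with neither. The log2 fold changes in that fit were -1.45 for Aldoc and -0.78 for Pdk1 with isotype (-1.65 and -0.82 without the covariate), and -1.36 for Aldoc and -0.80 for Mxi1 with anti-PD-1 (-1.61 and -0.81 without it). All 4 animal identifiers of the untreated isotype group began with the digit 5 and 3 of 4 of the irradiated isotype group with the digit 4, a numbering that the labels do not explain, and with that digit as a covariate 0 members were called with isotype, 1 with anti-PD-1 and 2 with both treatments. There Aldoc stood at -1.48 and Pdk1 at -0.53 with isotype, and Aldoc at -1.57 and Mxi1 at -0.81 with anti-PD-1. Of 10 macrophage genes 2 were called higher with isotype, 2 with anti-PD-1 and 6 with both treatments against neither, and of 10 neutrophil and monocyte genes 1, 2 and 3 were. Of 10 endothelial genes 1, 0 and 1 were called higher, 9, 8 and 10 were positive, and the medians were 0.39, 0.14 and 0.19. Other lists had no call by edgeR: of 8 sarcoma and mesenchymal genes 0 had positive log2 fold changes with anti-PD-1 (median -0.56) and 0 with both treatments (median -0.41), while 5 were positive with isotype (median 0.19). Of 6 erythroid genes 0 were positive with isotype (median -1.16), 0 with anti-PD-1 (median -1.25) and 1 with both treatments (median -0.32). Of 8 T cell genes 6 were positive with isotype (median 0.09), 3 with anti-PD-1 (median -0.08) and 8 with both treatments (median 0.82). Of 16 muscle genes 2 were positive with isotype (median -0.56), 12 with anti-PD-1 (median 0.20) and 8 with both treatments (median -0.05). The part of these in the lower Pdk1, Aldoc and Mxi1 was not tested beyond the Xist and digit fits and a fit with muscle genes, which called the same number of members.

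The antibody comparisons called no member in the allografts. With edgeR 0 of 40 passed at 0 Gy and 0 at 20 Gy, as did 0% of all 17746 genes in either comparison, and DESeq2 called 0 members and 0 genes. At an unadjusted p under 0.05, 0 members and 299 genes passed at 0 Gy, and 1 member and 682 genes at 20 Gy. Medians over the members were 0.11 at 0 Gy, with 35 positive, and -0.13 at 20 Gy, with 26 negative. Without the high replicate 4 of the unirradiated anti-PD-1 group the median at 0 Gy turned to -0.06, and without replicate 2 of the irradiated one the median at 20 Gy was -0.05. Slc2a1, the main glucose transporter, shows the spread at 0 Gy, with anti-PD-1 at 142.5, 97.5, 102.97 and 397 CPM against 213, 169, 114.6 and 90.5 CPM with isotype.

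In the primary tumours given isotype, 20 Gy went with 1 higher member and 0 lower, against 14.5% of 17770 genes called, 7.85% higher and 6.64% lower, a larger share than among the members. Pfkfb4 (ENSMUSG00000025648, chr9:108991778-109032228), a bifunctional enzyme that sets the level of the glycolytic activator fructose 2,6-bisphosphate, ran from 13.2 to 18.8 CPM (median 17.1) without and from 13.8 to 41.6 CPM (median 33.7) with radiation. Of the 8 irradiated tumours 5 lay above all unirradiated ones and the others lay among them (a log2 fold change of 0.81 with SE 0.26 and adjusted p 0.0339). Over the members 24 log2 fold changes were negative and the median was -0.10, beside -0.02 over all genes. At an unadjusted p under 0.05, 7 members and 5116 of the 17770 genes passed. Pdk1, lower in the allografts, ran from 18.1 to 67.6 CPM (median 35.5) without and from 21.1 to 77.6 CPM (median 28.7) with 20 Gy (a log2 fold change of -0.02 with SE 0.30 and adjusted p 0.978). Aldoc ran from 0.50 to 15.97 CPM (median 3.85) without and from 1.13 to 4.17 CPM (median 1.62) with it (a log2 fold change of -1.39 with SE 0.52 and adjusted p 0.0669).

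The Pfkfb4 call depended on single tumours. It was lost without replicate 2, 3 or 8 of the unirradiated or 1, 3, 4, 5 or 6 of the irradiated tumours (adjusted p 0.051 to 0.0755), and also with no expression filter (0.055) and when the level of skeletal muscle genes entered the fit as a covariate. Over the 8 settings that kept all tumours of these groups, its log2 fold change was 0.58 to 0.86 and its adjusted p at most 0.055.

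With anti-PD-1 the dose comparison in primary tumours called 5 members, 4 higher and 1 lower, against 7.92% of genes called, 6.06% higher and 1.86% lower. Hif1a (ENSMUSG00000021109, chr12:73901375-73947530), the alpha subunit of HIF-1, ran from 116.3 to 268 CPM (median 176) without and from 166 to 503 CPM (median 294) with 20 Gy, and 5 of the 8 irradiated tumours lay above every unirradiated one (a log2 fold change of 0.73 with SE 0.20 and adjusted p 0.0208). Hk2 (ENSMUSG00000000628, chr6:82725025-82774454), the inducible hexokinase, ran from 22.96 to 124.4 CPM (median 49.8) and then from 50.7 to 214 CPM (median 117.2), and the groups overlapped (a log2 fold change of 1.01 with SE 0.29 and adjusted p 0.0262). Pfkp (ENSMUSG00000021196, chr13:6579768-6648777), the platelet-type phosphofructokinase, ran from 29.8 to 65.2 CPM (median 47.7) and then from 44.3 to 124.3 CPM (median 77.99), with 5 irradiated tumours above all unirradiated ones (a log2 fold change of 0.78 with SE 0.22 and adjusted p 0.0262). So Hif1a, Hk2 and Pfkp rose, with some irradiated tumours still inside the unirradiated range.

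The other 2 calls rested on single tumours. Car9 (ENSMUSG00000028463, chr4:43506966-43513729), the membrane carbonic anhydrase of hypoxic cells, was at 70.4 CPM in irradiated replicate 5 and at 1.17 to 10.8 CPM in the other 7, against 1.06 to 8.11 CPM (median 1.70) without radiation (a log2 fold change of 2.25 with SE 0.71 and adjusted p 0.0448). Without that tumour its log2 fold change was 0.56 with an adjusted p of 0.539. Stc2 (ENSMUSG00000020303, chr11:31357307-31370074), a secreted glycoprotein, was at 50.1 CPM in unirradiated replicate 4 and ran from 5.08 to 50.1 CPM (median 13.5) in that group and from 4.35 to 11.9 CPM (median 7.18) with radiation (a log2 fold change of -1.12 with SE 0.35 and adjusted p 0.0467). Without that replicate Stc2 stood at -0.67 with an adjusted p of 0.18.

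Over all members 32 log2 fold changes were positive and the median was 0.25, beside 0.02 for all genes. At an unadjusted p under 0.05, 10 members and 4190 of 17770 genes passed. Without irradiated replicate 5 the median was 0.10, and without irradiated replicate 4 the members called were Hif1a and Car9. The Hif1a call held without any 1 of the 16 tumours, but it was lost when only these groups entered the fit (adjusted p 0.0525), as was the Hk2 call (0.0715). The Hk2 call was lost without unirradiated replicate 6 or 7 or irradiated replicate 4 (adjusted p 0.0511 to 0.0814), and the Pfkp call without unirradiated 2 or 7 or irradiated 3, 4 or 5 (0.0502 to 0.0572). Besides irradiated replicate 5, the Car9 call was lost without 9 other tumours taken singly, unirradiated 1, 2, 4, 5, 6, 7 or 8 and irradiated 3 or 6 (adjusted p 0.0515 to 0.0824). It was also lost in 6 of 8 other settings, which were DESeq2 (0.53, adjusted p 0.537), no expression filter, only these groups in the fit, and the muscle (1.52), digit and Xist covariates. The Stc2 call was also lost without unirradiated 1, 6 or 7 or irradiated 2, 3, 4, 7 or 8 (adjusted p 0.0552 to 0.102), and with no expression filter, only these groups in the fit or the digit covariate (0.0663 to 0.102).

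In primary tumours with both treatments, set against those with neither, 6 members were higher and 0 lower, against 13.8% of genes called, 8.78% higher and 4.98% lower. The smallest adjusted p was that of Hk2, which ran from 24.5 to 74.7 CPM (median 48.03) in untreated and from 50.7 to 214 CPM (median 117.2) in doubly treated tumours. Of the latter 7 of 8 lay above all untreated tumours (a log2 fold change of 1.39 with SE 0.29 and adjusted p 0.00161). Slc16a3 (ENSMUSG00000025161, chr11:120948480-120960868), which exports lactate, ran from 5.53 to 67.3 CPM (median 18.8) and then from 31.3 to 169 CPM (median 71.8), with 4 treated tumours above all untreated ones (a log2 fold change of 1.80 with SE 0.53 and adjusted p 0.0212). Hif1a ran from 134.2 to 301 CPM and then from 166 to 503 CPM (a log2 fold change of 0.63 with SE 0.20 and adjusted p 0.0302).

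The regulators of phosphofructokinase rose as well. Pfkfb3 (ENSMUSG00000026773, chr2:11471433-11554077), the other bifunctional enzyme of the set, ran from 34.6 to 73.3 CPM (median 43.5) in untreated and from 44.4 to 127.01 CPM (median 80.03) in treated tumours, 6 of which lay above all untreated ones (a log2 fold change of 0.79 with SE 0.21 and adjusted p 0.0116). Pfkfb4 ran from 13.2 to 18.8 CPM and then from 15.3 to 72.3 CPM (a log2 fold change of 0.93 with SE 0.26 and adjusted p 0.0157), and Pfkp from 29.1 to 75.99 CPM and then from 44.3 to 124.3 CPM (a log2 fold change of 0.74 with SE 0.22 and adjusted p 0.0231). The abundant enzymes did not pass: Gapdh stood at a median of 1437 CPM and then of 2048 CPM (a log2 fold change of 0.43 with SE 0.23 and adjusted p 0.202), and Ldha at 621 and then 787 CPM (a log2 fold change of 0.21 with SE 0.25 and adjusted p 0.613). Among the 40 members 29 log2 fold changes were positive and the median was 0.21, beside -0.01 over all genes. An unadjusted p under 0.05 was reached by 10 members and by 5229 of the 17770 genes. Without irradiated replicate 4, the tumour highest in 11 members and in muscle genes, Slc16a3 (1.62, adjusted p 0.0506) and Pfkfb4 (0.63, adjusted p 0.071) missed the threshold and Hif1a, Hk2, Pfkp and Pfkfb3 passed. The Hif1a call was lost without untreated replicate 2, 6 or 8 or treated replicate 5 or 6 (adjusted p 0.0517 to 0.0719) and with only these groups in the fit (0.0663), and without treated replicate 5 the median over the members was 0.10.

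**Figure D3:**
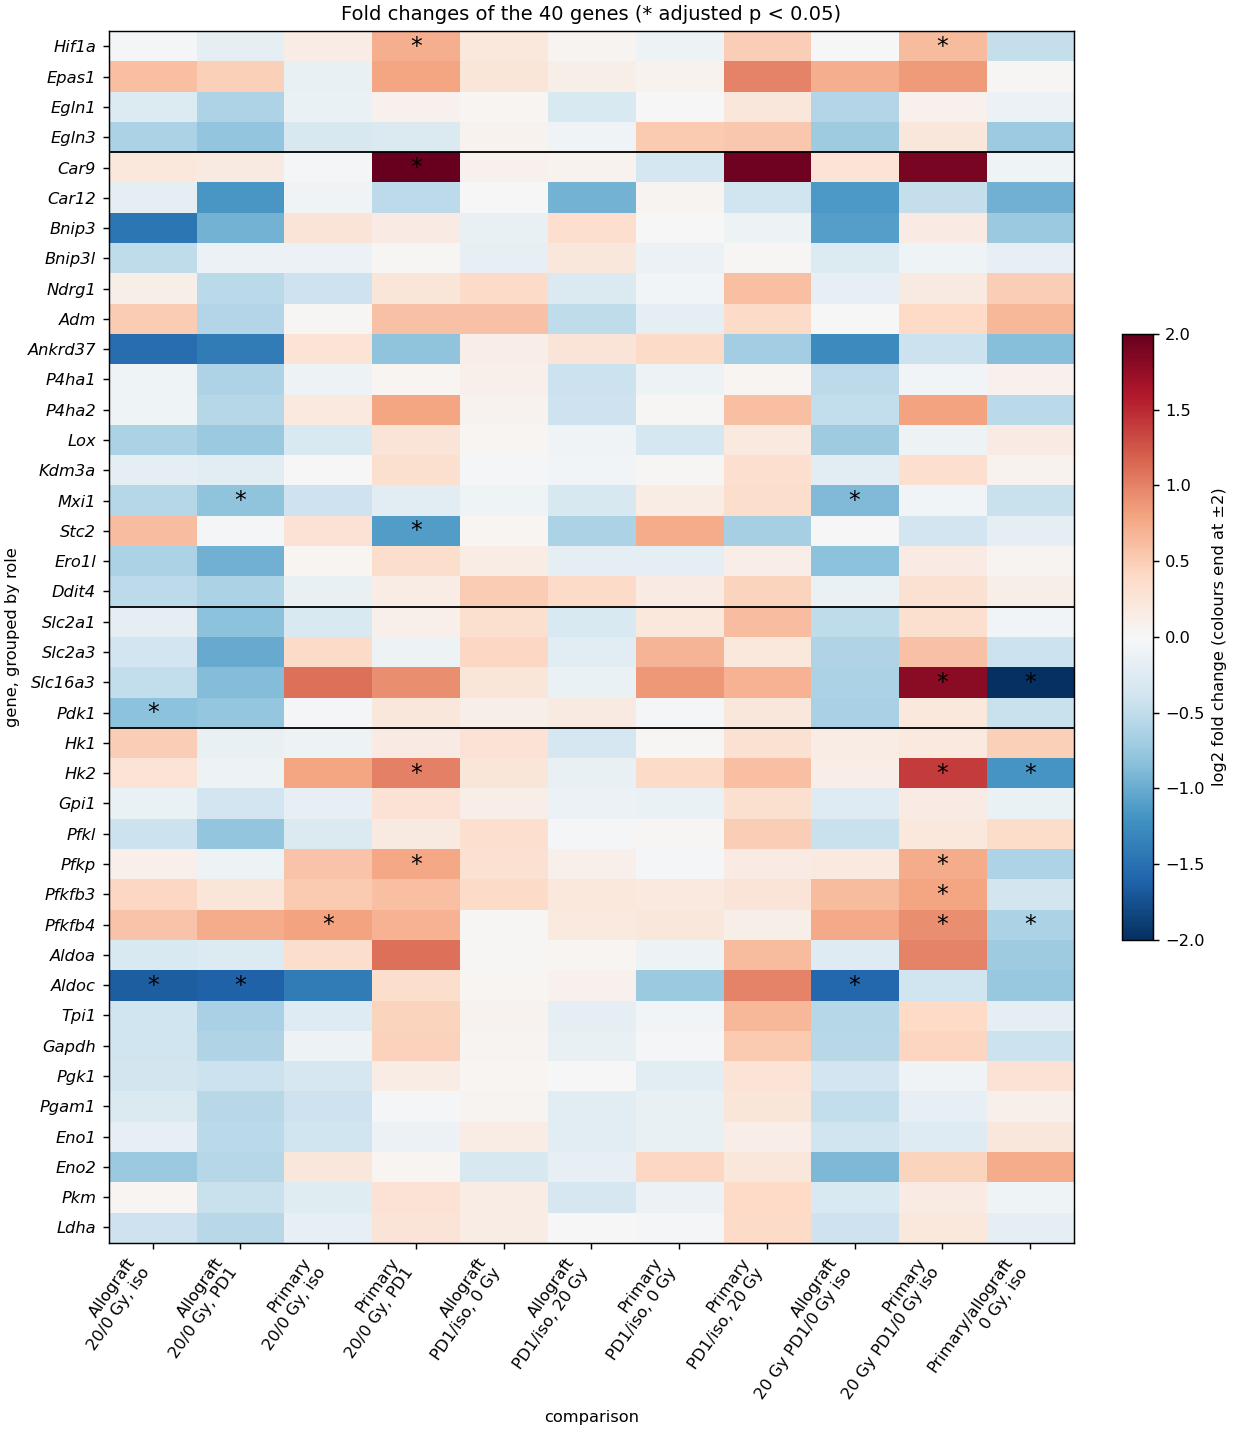
Log2 fold change of each member (rows, grouped by role) in 11 comparisons (columns), with colours ending at 2 units either way and an asterisk where the adjusted p is under 0.05. The allograft dose columns are mostly blue with asterisks at Pdk1, Mxi1 and Aldoc, and the column of primary tumours with both treatments has 6 asterisks, all higher.

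Anti-PD-1 against isotype called no member in the primary tumours. By edgeR 0 of 40 passed at either dose, as did 0% of the 17770 genes, and DESeq2 called 0 members and 3 genes at 0 Gy and 0 members and 5 genes at 20 Gy. At an unadjusted p under 0.05, 2 members and 412 genes passed at 0 Gy, and 11 members and 1443 genes at 20 Gy. At 0 Gy the members split 20 to 20 by sign, with a median of -0.01. At 20 Gy 36 were positive with a median of 0.33, among them all 17 glycolytic genes, and the smallest adjusted p was 0.591. The median was 0.26 without irradiated anti-PD-1 replicate 5 and 0.33 without replicate 4. Hif1a at 20 Gy ran from 167 to 289.9 CPM (median 198) with isotype and from 166 to 503 CPM (median 294) with anti-PD-1 (a log2 fold change of 0.49 with SE 0.20 and adjusted p 0.596). Other lists leaned at 20 Gy too, with 0 calls. Of 16 muscle genes 16 were positive (median 0.66), of 10 endothelial genes 10 (0.64) and of 8 sarcoma and mesenchymal genes 7 (0.31). Of 10 neutrophil and monocyte genes 7 were positive (0.45), of 8 T cell genes 6 (0.42) and of 10 macrophage genes 6 (0.07). Their part was not tested.

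Untreated primary tumours were compared with untreated allografts to see how the kinds differed at the start. In primary tumours 3 members were lower and 0 higher, against 10% of 17357 genes called, 6.03% higher and 3.99% lower. Slc16a3 ran from 5.53 to 67.3 CPM (median 18.8) in primary tumours and stood at 159, 133.3, 80.96 and 83.1 CPM in allografts, with no overlap (a log2 fold change of -2.07 with SE 0.53 and adjusted p 0.0275). Hk2 ran from 24.5 to 74.7 CPM and stood at 98.9, 92.97, 161 and 59.2 CPM, with 6 of 8 primary tumours below all allografts (a log2 fold change of -1.18 with SE 0.30 and adjusted p 0.0252). Pfkfb4 ran from 13.2 to 18.8 CPM and stood at 18.3, 21.5, 38.00 and 24.1 CPM (a log2 fold change of -0.63 with SE 0.18 and adjusted p 0.0437). Hk1, the constitutive hexokinase, was the only other member without overlap, at 118.5 to 146 CPM in primary tumours and 107.2, 86.4, 114.3 and 57.98 CPM in allografts (a log2 fold change of 0.48 with SE 0.15 and adjusted p 0.0675). Overlap was counted for the members only and not over all genes. Negative log2 fold changes made up 26 of 40, with a median of -0.17 beside 0.01 over all genes. At an unadjusted p under 0.05, 8 members and 4526 of the 17357 genes passed. Markers of other cells moved as well: 5 of 8 T cell genes (median -1.71) and 4 of 10 neutrophil and monocyte genes (median -1.85) were lower in primary tumours, and 3 of 8 sarcoma and mesenchymal genes (median 0.95) and 1 of 10 macrophage genes were higher. Of 16 muscle genes 0 had positive log2 fold changes (median -1.95) and 0 were called. Apart from the fit with muscle genes, their part in the lower Slc16a3, Hk2 and Pfkfb4 was not tested.

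Those baseline calls also leaned on few allografts. The Slc16a3 call was lost without allograft 1, 2 or 4 (adjusted p 0.0558 to 0.0819), the Hk2 call without allograft 1, 2 or 3 (0.0564 to 0.0962), and the Pfkfb4 call without allograft 2, 3 or 4 or primary tumour 1, 2, 3, 5, 7 or 8 (0.0528 to 0.146). Without allograft 3 Pfkfb4 stood at -0.38. With Xist as a covariate 0 of the 3 were called, at -1.91 for Slc16a3 (adjusted p 0.0513), -1.07 for Hk2 (0.08) and -0.54 for Pfkfb4 (0.142) beside -2.07, -1.18 and -0.63 without it, and with the muscle level Pfkfb4 missed the threshold at -0.49 (0.106). Pfkfb4 also missed it with no expression filter (-0.62, adjusted p 0.0704) and with all 48 tumours in the fit (-0.62, adjusted p 0.16), so that its call was lost in 4 of 6 other settings. Slc16a3, Hk2 and Pfkfb4 are 3 of the 6 genes called higher with both treatments in the primary tumours, but both comparisons use the same 8 untreated primary tumours, so the overlap of names is no separate evidence.

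Whether the dose difference depended on the tumour kind was tested as an interaction over all 48 tumours. With isotype 0 members were called by edgeR, as was 0.00517% of 19327 genes (1 gene, lower), and with anti-PD-1 0 members and 0% of genes were called. DESeq2 called 0 members in either, with 5 genes for isotype and 3 for anti-PD-1. At an unadjusted p under 0.05, 2 members and 1914 genes passed with isotype, and 18 members and 922 genes with anti-PD-1. The median interaction over the members was 0.20 with isotype and 0.79 with anti-PD-1, beside -0.02 and 0.03 over all genes, and 29 and 38 of 40 were positive. Without replicate 4 of the unirradiated anti-PD-1 allografts the anti-PD-1 median was 0.52, and without irradiated anti-PD-1 primary replicate 4 or 5 it was 0.73 or 0.71. The smallest adjusted p was 0.486 with isotype and 0.905 with anti-PD-1. Calls present in 1 tumour kind and absent in the other, such as that of Aldoc (a log2 fold change of 0.27 with SE 0.79 and adjusted p 0.909 for the isotype interaction), were therefore not shown to differ between kinds. Cell-type lists leaned too, with 0 calls. With isotype and anti-PD-1, 16 and 16 of 16 muscle genes were positive (medians 2.75 and 2.41), and 6 and 6 of 6 erythroid genes (1.71 and 1.16). So were 9 and 8 of 10 neutrophil and monocyte genes (1.70 and 1.06), 0 and 8 of 10 endothelial genes (-0.91 and 0.15) and 3 and 4 of 10 macrophage genes (-0.11 and -0.31). Their part was not tested.

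Pathway genes outside the set were counted in the same fits, whose shares of called genes are given above. Of 20 further HIF target genes, 3 were higher with 20 Gy in allografts given isotype and 2 in primary tumours given isotype, beside 4.4% and 7.85% of all genes, and 0 were lower. By sign, 7 of the 20 were positive in those allografts, with a median of -0.22, and 10 in those primary tumours, with a median of 0.10. With anti-PD-1 1 was higher and 1 lower in allografts (median -0.28) and 4 were higher in primary tumours (median 0.46), and with both treatments against neither 2 were higher in allografts (median -0.32) and 3 in primary tumours (median 0.46). Plin2, which coats lipid droplets, was called in both isotype comparisons, at a log2 fold change of 0.83 (SE 0.15, adjusted p 0.00654) in allografts and 0.84 (SE 0.20, adjusted p 0.00383) in primary tumours. Angptl4, a secreted inhibitor of lipoprotein lipase, was called in both as well, at 0.85 (SE 0.21, adjusted p 0.0323) and 0.85 (SE 0.29, adjusted p 0.0466). The others below are named because their counts are small, after their values were seen. Pdgfb was the other target called with isotype in allografts (0.75). With anti-PD-1 Plin2 (0.61) was higher and Zfp395 (-0.95) lower in allografts, and Plin2 (1.15), Angptl4 (0.94), Gbe1 (0.91) and Edn1 (1.48) were higher in primary tumours. Of 8 HIF pathway regulators, 0 were called with dose in allografts and Cited2, which competes with HIF for a coactivator, was higher in the primary tumours with isotype (0.47), anti-PD-1 (0.70) and both treatments against neither (0.69). Of 22 further glucose metabolism genes, 0 were called with dose in allografts, and in primary tumours Hk3 was higher (1.60) and Ldhb (-1.31) and Tkt (-0.49) lower with isotype. Higher with anti-PD-1 were Hk3 (1.25), Pdk4 (3.13) and G6pdx (0.42), and with both treatments against neither Hk3 (1.70), G6pdx (0.46), Pdk4 (3.29), Pfkm (1.83) and Eno3 (2.94), of which Pfkm and Eno3 are muscle isoforms. At baseline Vegfa (-1.48), Gbe1 (-1.53), Nfil3 (-1.51), Cited2 (-0.66), Slc16a1 (-0.83), G6pdx (-0.65) and Pgd (-0.55) were lower in primary tumours.

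Tumours high in Car9 tended to be high in many other members. After subtracting group means from log2(CPM + 1), the median Pearson r of the 39 other members with Car9 was 0.473 over the 32 primary tumours, beside 0.06 over all 11677 genes tested, and 36 were positive. An unadjusted p under 0.05, by permutation within groups, was reached with positive r by 24 of 39 members and by 6.3% of all genes, and with negative r by 0 members and 3.8% of genes. The strongest were Pfkl, the liver-type phosphofructokinase (r 0.64, rho 0.58, permutation p 8e-05), Ero1l, an oxidase of the endoplasmic reticulum (0.63, 0.59, 0.00028), and Pfkp (0.63, 0.64, 0.00013). Kdm3a (r 0.62), Pgk1 (0.61), Pdk1 (0.59), Slc2a1 (0.58) and Bnip3 (0.56) followed. Epas1 stood apart at r -0.44 (rho -0.49, permutation p 0.0507), and the 6 genes that rose with both treatments differed in r, at 0.63 for Pfkp, 0.44 for Slc16a3, 0.40 for Hif1a, 0.21 for Hk2, 0.06 for Pfkfb3 and -0.26 for Pfkfb4. With the muscle mean also removed r was 0.47 for Hk2.

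No gene passed once these p-values were adjusted over all 11677 genes (0% positive and 0% negative), and the smallest adjusted p of a member was 0.0778 for Pdk1. Adjusted over the 39 relations, 24 passed by Pearson r and 23 by Spearman rho. Without the 2 tumours farthest from the median of Car9, irradiated anti-PD-1 replicate 5 and untreated replicate 4, the median r was 0.363, with 0.57 for Pfkl and 0.16 for Hk1, which stood at 0.46 with them. In the 16 allografts the median r was 0.406, 35 were positive, and 7 of 39 members reached an unadjusted p under 0.05 against 0.78% of genes with positive r and 0.686% with negative r. The highest were Adm (r 0.79, rho 0.72, permutation p 0.00228), Bnip3 (0.74, 0.76, 0.00536) and Aldoc (0.73, 0.70, 0.00376). There too 0% of 11667 genes passed after adjustment, 0 members passed over the 39 relations, and the median r was 0.115 without the 2 farthest tumours. Outside the set, of 11675 genes averaging 5 CPM or more, those most like Car9 over the primary tumours were Mtpn (r 0.76), Spidr (0.69), Uap1 (0.68), Gzf1 (0.67) and Pafah2 (0.67), and Pfkl ranked 7, Ero1l 15 and Pfkp 16. Without the 2 farthest tumours these 5 stood at 0.60, 0.53, 0.40, 0.44 and 0.33. The tumours share library preparation and the level of Car9 rests on few CPM in most of them.

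**Figure D4:**
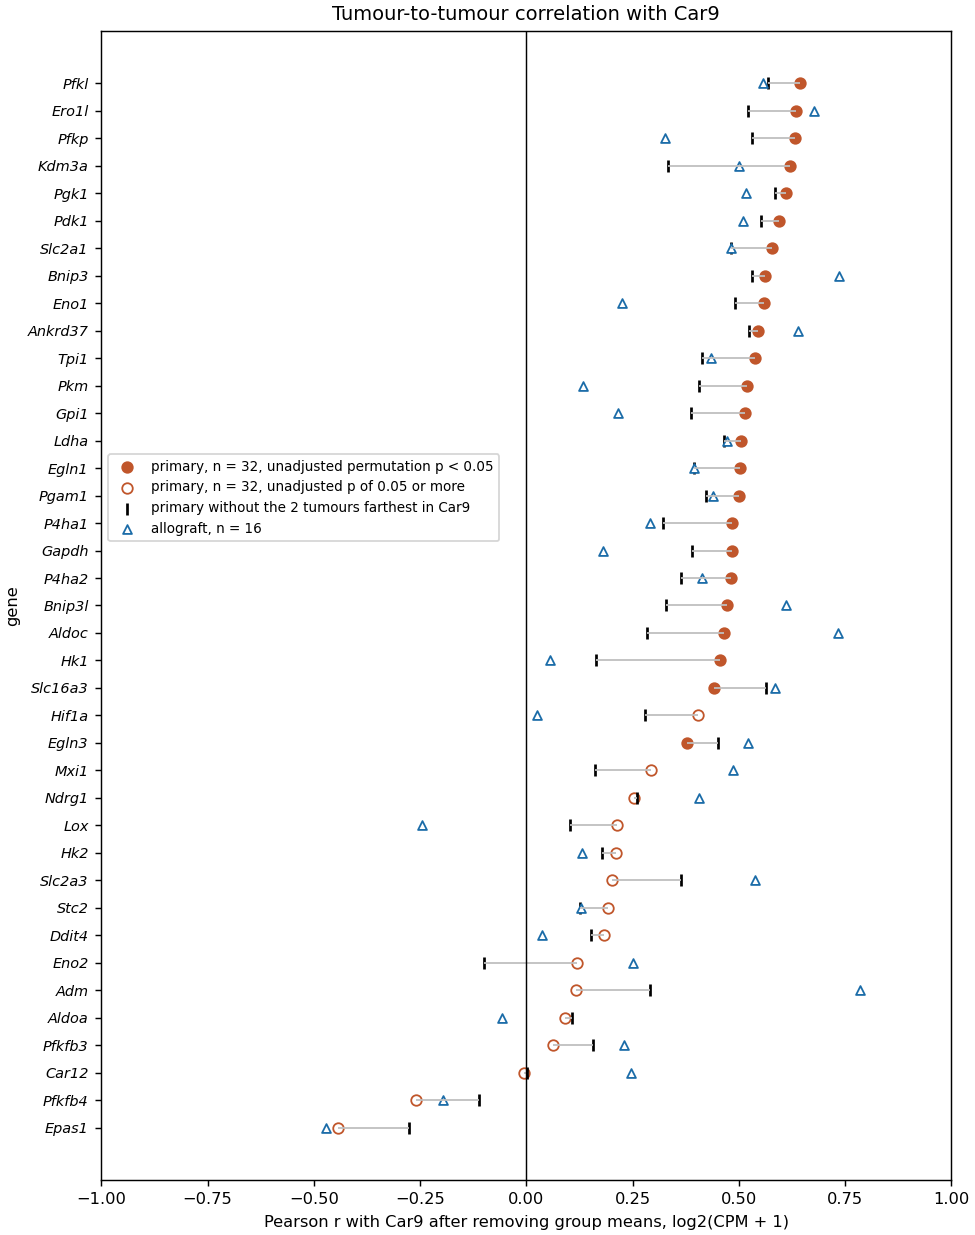
Pearson r of each other member with Car9 after group means were removed, on log2(CPM + 1): filled circles are primary tumours (n = 32) with an unadjusted permutation p under 0.05, open circles the rest, black ticks the primary value without the 2 tumours farthest in Car9, triangles the allografts (n = 16). Most primary values lie between 0.4 and 0.65, with Epas1 at -0.44.

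Muscle RNA differed between tumours by orders of magnitude and went with some members. The summed CPM of 16 skeletal muscle genes ran from 79.0 to 7409 in the untreated primary group and from 19.2 to 96959 in the irradiated anti-PD-1 primary group, and from 103.7 to 24992 in untreated allografts. None of the 16 was called by edgeR in any dose comparison, while all 16 had positive log2 fold changes in the primary ones, with medians of 2.21, 2.73 and 2.84. Over the 32 primary tumours, with group means removed and p adjusted over 11662 genes, 3 members followed the mean of the muscle genes: Pfkfb4 (r 0.68, adjusted p 0.00965), Epas1 (0.65, adjusted p 0.00823) and Aldoa (0.63, adjusted p 0.0141), beside 5.28% of all genes. Kdm3a (-0.58), P4ha1 (-0.54) and Pgam1 (-0.54) ran against it, beside 4.48% of all genes. Without the 2 tumours farthest in muscle genes, irradiated anti-PD-1 replicates 1 and 4, r was 0.58 for Pfkfb4, 0.50 for Epas1, 0.54 for Aldoa, -0.60 for Kdm3a, -0.49 for P4ha1 and -0.40 for Pgam1. In allografts Aldoa alone followed it (r 0.82, adjusted p 0.00349, and r 0.83 without the 2 farthest tumours), against 3.03% of genes positive and 0.215% negative. With the muscle mean also removed, the median r of the members with Car9 was 0.433 in the primary tumours.

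Genes of other cell types moved with dose in the primary tumours as well. Of 10 neutrophil and monocyte genes 4 were higher with isotype, 4 with anti-PD-1 and 6 with both treatments, and their summed CPM had a median of 379 in untreated and 1134 in doubly treated tumours. Of 10 macrophage genes 4, 3 and 3 were higher, and of 8 sarcoma and mesenchymal genes 1 was lower in each. Of 10 endothelial, 8 T cell and 6 erythroid genes 0 were called with dose in the primary tumours. Their part in the higher Hk2, Hif1a, Pfkp, Pfkfb3 and Slc16a3 was not tested, except that muscle was entered as a covariate. All 8 sarcoma and mesenchymal genes were above 1 CPM in every tumour.

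**Figure D5:**
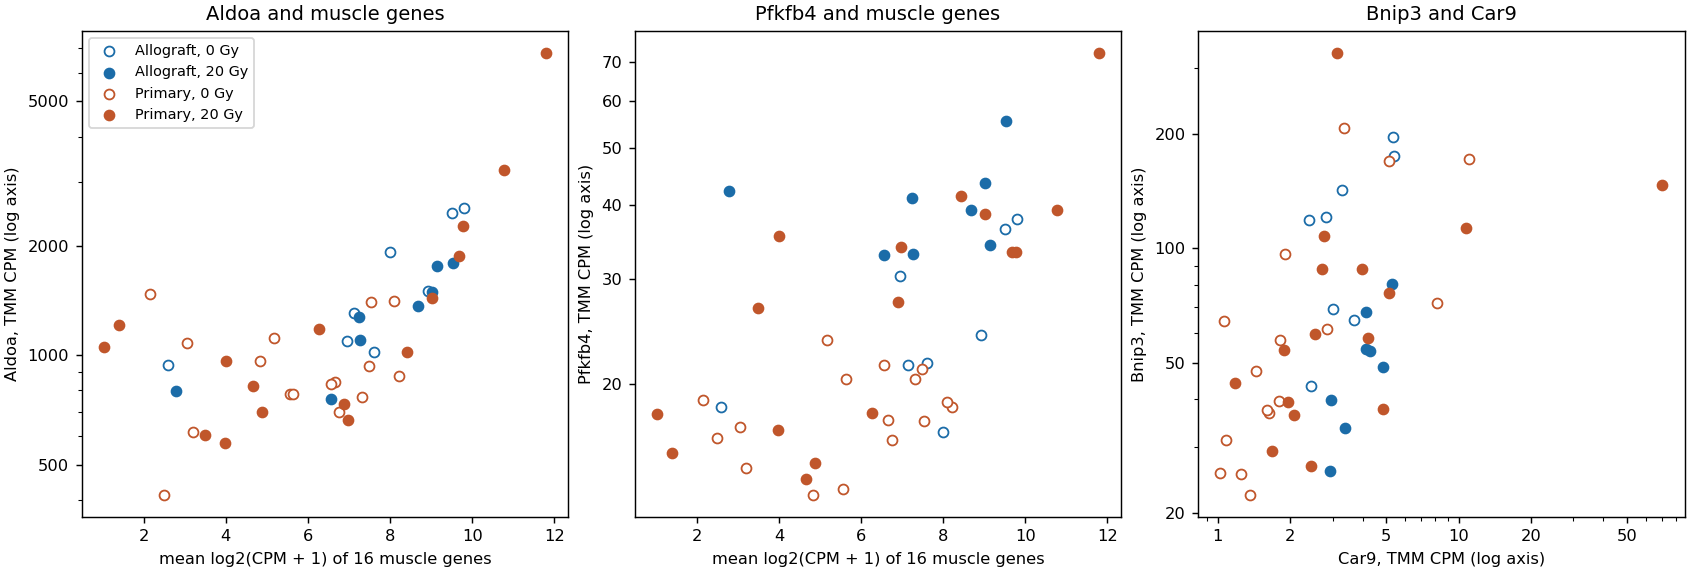
Each tumour by the mean log2(CPM + 1) of 16 muscle genes against Aldoa (left) and Pfkfb4 (middle), and by Car9 against Bnip3 (right), with CPM on log axes, blue for allografts, orange for primary tumours and filled symbols for 20 Gy. Aldoa is highest where muscle genes are highest, and 1 irradiated primary tumour lies far to the right in Car9.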

How the data were processed

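Poly(A) RNA from 48 tumours was sequenced in strand-specific libraries, per the labels' protocols. Reads were processed with Trimmomatic 0.36, STAR and HTSeq on mm10, per the submitters' processing notes, and the authors deposited whole-number counts per gene. The strand setting and annotation of the counting are not given in the sources used here. The table holds 36854 entries, of which 36796 have a name. Library sizes were summed over the genes that passed the filter on low counts. Symbols, positions and exon lengths are from GENCODE M21 on GRCm38.

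Allografts and primary tumours were fitted separately, the tumour-kind comparison in its 12 tumours and the interactions over all 48. Low genes were removed with filterByExpr, libraries were scaled by TMM, and edgeR 4.0.16 (R 4.3.3) quasi-likelihood p-values received the Benjamini-Hochberg adjustment over the whole tested table. DESeq2 1.42.0, other scaling, no filter, other sample sets, covariates and leave-one-out fits were alternatives. Correlations used log2(CPM + 1) with group means removed and 100000 permutations within groups (scipy 1.17.1, numpy 2.4.6), two-sided. The fits were tested on simulated data. The members and gene lists were chosen with earlier results of these data known. Every member may be named, with values for those called in a dose or baseline comparison and for Hif1a, Epas1, Car9, Egln3, Slc2a1, Pdk1, Pgk1 and Ldha, the 5 genes most like Car9 are named, and other pathway genes are named when called in both isotype dose comparisons. Values of other members (such as Bnip3, Gapdh and Hk1) and the rest of the pathway genes named were added after their values were seen. Depth was 31.8 to 54 M counts per tumour.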

Additional observations from a re-analysis of the deposited data

Results flagged for a closer look

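In 13 of 320 sets of 1 member in 1 group (4.06%), a tumour lay apart from the others of its group by Dixon's gap criterion, which chance alone meets in about 1 in 20 groups. In the unirradiated anti-PD-1 allografts, replicate 2 was low in Hif1a (222 CPM, others 333 to 355) and in Pfkfb3 (53.3 CPM, others 83.4 to 89.2), and replicate 4 was high in P4ha2 (84.2 CPM, others 41.3 to 44.9). In the irradiated isotype allografts, replicate 1 was low in Pdk1 (21.4 CPM, others 30.8 to 33.1) and high in Ldha (631 CPM, others 565 to 575), and replicate 4 was high in Ero1l (61.6 CPM, others 33.1 to 34.9). Ero1l was low in replicate 2 of the irradiated anti-PD-1 allografts (32.2 CPM, others 37.3 to 38.4).

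Among the primary tumours, Pfkfb3 was high in replicate 4 of the untreated isotype group (73.3 CPM, others 34.6 to 48.1) and in replicate 4 of the unirradiated anti-PD-1 group (103.6 CPM, others 33.4 to 54.0). Replicate 3 of the irradiated isotype group was high in Bnip3l (244 CPM, others 110 to 157), Ankrd37 (18.9 CPM, others 1.25 to 4.19) and Aldoc (4.17 CPM, others 1.13 to 1.95). Hk1 was high in replicate 5 of the irradiated anti-PD-1 group (212 CPM, others 126.1 to 160), the tumour that was also highest in Car9.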

How the results depend on the processing

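No paired analysis was made, because the tumours carry separate animal identifiers and the labels name no pairs. Over 432 alternative settings of the 21 member log2 fold changes that were called, 313 stayed past the threshold, the others did not, and 0 changed sign. Members called with 20 Gy in allografts given isotype (2) became 1 with no filter and 0 with the identifier digit, Xist or all 48 tumours. With anti-PD-1 (2) they became 8 with DESeq2, 1 with no filter or the digit, and 0 with only the groups compared, Xist or all 48. Both treatments against neither (2) gave 7 with DESeq2 and 1 with Xist or all 48. In primary tumours given isotype (1) the count was 4 with DESeq2, 2 with its size factors or the digit, 3 with only the groups compared or all 48, and 0 with no filter or muscle. With anti-PD-1 (5) it was 3 with no filter or the digit and 1 with only the groups compared. At baseline (3) it was 5 with DESeq2 and 0 with Xist. The cause of these moves was not tested. Leaving out 1 tumour gave 0 to 4, 0 to 4 and 0 to 3 in the allograft dose comparisons, 0 to 3, 1 to 7 and 4 to 8 in the primary ones, 0 to 3 at baseline and 0 to 0 for the antibody and interaction tests. The 24 members that passed with Car9 in primary tumours became 13 over the unirradiated tumours alone and 0 when adjusted over all genes, an adjustment chosen after seeing the data. In allografts 0 became 4 with muscle removed. Calls over all genes moved too: with DESeq2 from 912 to 1530, 703 to 1664, 1714 to 2626, 1407 to 2188 and 1738 to 2868, with all 48 tumours from 912 to 372 and 1714 to 851, with the 703 of anti-PD-1 also moved down, and with only the groups compared from 703 to 1, 1714 to 1075, 1407 to 822 and 2446 to 1384. With the digit or Xist, the isotype allograft count fell to 196 or 431, and with Xist the anti-PD-1 one to 316. The digit fit could not be made for primary tumours with both treatments against neither, and groups of 4 limit every allograft result.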
